A study of Mus musculus with 12 samples.

Results

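The genes described here encode the subunits of Polycomb repressive complex 2 (PRC2) and the histone methyltransferase DOT1L. They were taken by symbol from the table of normalized read counts: Ezh2, Ezh1, Eed, Suz12, Rbbp4, Rbbp7, Phf19, Jarid2, Aebp2 and Dot1l. Each of the 10 symbols matched 1 row of the 38250 in the table, and 9 of them are PRC2 genes. RNA-seq was performed on Ter119+ erythroid cells from e14.5 mouse fetal liver (CD1 strain) after 48 h of co-culture with stromal cells and 2 U/mL erythropoietin, in 12 libraries. The labels name Ter119+ cells but describe their recovery with a filter, and the study's methods describe a sort on Ter119. The cells were either wild type for the transcription factor IKAROS (Ik-WT) or homozygous for an Ikzf1 null allele that lacks the last translated exon (Ik-null), and the stroma was either OP9, a bone marrow stromal line, or OP9-DL1, the same line made to express the NOTCH ligand Delta-like 1. Each of the 4 combinations of genotype and stroma, written genotype first (Ik-WT/OP9 for wild-type cells on plain OP9), held 3 libraries. IKAROS is absent from every tissue of the Ik-null embryos, which came from heterozygous crosses and were compared with wild-type littermates. All groups shared the strain, the embryonic stage, the erythropoietin and the culture time.

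PRC2 places methyl groups on lysine 27 of histone H3, a mark of silenced genes. EZH2 or its paralog EZH1 carries the catalytic SET domain, EED and SUZ12 are needed for its activity, and RBBP4 or RBBP7 binds histones; PHF19 (a Polycomb-like protein), JARID2 and AEBP2 are accessory subunits that steer or stimulate the core. EZH2 is known as the form of dividing cells, whereas EZH1 is also kept in cells that have stopped dividing. In erythroid development the SET domain paralogs are known to be exchanged as cells mature. DOT1L is of a different family: it methylates lysine 79 of histone H3 within the bodies of transcribed genes, and loss of Dot1l in mice impairs erythropoiesis.

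The PRC2 genes are scattered over the genome. In the GENCODE annotation of GRCm38, Ezh2 lies at chr6:47530139-47595341, Rbbp4 at chr4:129307100-129335370 and Phf19 at chr2:34893757-34914026, all on the minus strand, and Rbbp7 lies on chromosome X. Several of these genes varied together across the libraries, and to show their start regions the 300 bases from 250 before to 50 after the annotated start are given below for 5 of them, 5′ to 3′ on the gene's own strand, from NCBI RefSeq (build GRCm38.p6). Both strands were searched for the letters TGGGAA, the core recognized by IKAROS and also by RBPJ, the DNA-binding partner of NOTCH, for GCGGGAA and TTTGGCG, which resemble sites of the E2F factors of the cell cycle, and for CCAAT. Capitals mark matches to the first 3 of these, which appear as their reverse complement where they lie on the other strand. The windows are chr2:34913927-34914226 (minus strand) for Phf19, chr4:129335321-129335620 (minus strand) for Rbbp4, chr6:47594981-47595280 (minus strand) for Ezh2, chr11:79992856-79993155 (plus strand) for Suz12 and chrX:162760122-162760421 (plus strand) for Rbbp7.
Phf19: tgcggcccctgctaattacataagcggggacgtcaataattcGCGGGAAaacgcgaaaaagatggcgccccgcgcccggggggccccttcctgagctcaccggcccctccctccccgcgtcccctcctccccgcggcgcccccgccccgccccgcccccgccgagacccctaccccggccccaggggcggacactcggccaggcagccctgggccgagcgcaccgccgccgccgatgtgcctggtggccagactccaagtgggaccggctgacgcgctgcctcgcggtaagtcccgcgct
Rbbp4: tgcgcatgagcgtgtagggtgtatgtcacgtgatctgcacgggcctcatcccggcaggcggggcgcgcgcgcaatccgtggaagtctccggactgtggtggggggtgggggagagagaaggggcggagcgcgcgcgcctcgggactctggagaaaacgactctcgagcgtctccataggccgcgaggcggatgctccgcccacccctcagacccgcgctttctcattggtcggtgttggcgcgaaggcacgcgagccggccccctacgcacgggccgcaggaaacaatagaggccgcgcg
Ezh2: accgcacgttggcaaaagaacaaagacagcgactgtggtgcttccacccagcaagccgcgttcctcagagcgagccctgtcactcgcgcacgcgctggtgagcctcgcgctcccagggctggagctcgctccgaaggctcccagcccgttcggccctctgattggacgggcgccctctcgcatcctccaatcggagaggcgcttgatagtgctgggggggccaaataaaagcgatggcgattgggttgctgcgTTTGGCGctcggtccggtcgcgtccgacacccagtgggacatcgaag
Suz12: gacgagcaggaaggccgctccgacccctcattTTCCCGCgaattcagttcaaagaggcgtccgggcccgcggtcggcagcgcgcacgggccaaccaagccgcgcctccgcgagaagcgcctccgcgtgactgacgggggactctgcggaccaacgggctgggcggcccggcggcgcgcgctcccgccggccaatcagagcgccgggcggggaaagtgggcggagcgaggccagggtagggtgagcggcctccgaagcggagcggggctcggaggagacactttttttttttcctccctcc
Rbbp7: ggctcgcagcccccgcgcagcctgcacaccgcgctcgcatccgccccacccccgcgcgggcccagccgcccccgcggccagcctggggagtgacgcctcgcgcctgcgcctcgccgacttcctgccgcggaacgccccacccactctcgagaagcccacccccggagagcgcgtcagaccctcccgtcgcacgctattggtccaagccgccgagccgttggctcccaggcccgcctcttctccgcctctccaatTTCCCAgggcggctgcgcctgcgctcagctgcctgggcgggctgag

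GCGGGAA was found in the windows of Phf19 and Suz12 and TTTGGCG in that of Ezh2, while the window of Rbbp4 held none of the 3 capitalized motifs. Dot1l also varied with the genes shown, and its window, not printed, held none of these motifs and no CCAAT. RefSeq gave 13 such windows for the 10 genes, since Aebp2 and Jarid2 have alternative starts. TGGGAA occurred in 4 of the 13 windows (of Aebp2, Jarid2 and Rbbp7), beside 25.6% of all 32851 mouse windows of the same length. GCGGGAA occurred in 2 windows (4.60% of all), TTTGGCG in 1 (1.56% of all) and CCAAT in 8 (37.4% of all). The windows were rich in G and C, with a median of 64.3% against 52.7% over all windows. A match is a description of the sequence and not of binding, which was not measured in these libraries.

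All 10 genes were read in every library, and all passed the filter on low values (a mean normalized count of at least 5). On a scale of normalized counts per kilobase of exon, which allows levels of different genes to be compared, Rbbp7 (mean over 12 libraries 755), Suz12 (638) and Rbbp4 (594) were highest. Ezh2 (291) and Ezh1 (280.2) stood next and close together, followed by Dot1l (209) and Eed (152). The accessory subunits were lowest, with Jarid2 at 80.5, Phf19 at 42.8 and Aebp2 at 35.9. Each of the 6 core genes thus stood above each accessory gene. The gene to which some reads belong can be uncertain. Of the 50-base stretches of the Rbbp4 transcripts 17.2% also occur in another gene (Gm26722, Sync or Gm4800). The share was 11.2% for Rbbp7 (Gm6382 or Txlng), 5.82% for Eed, 2.60% for Suz12 and at most 1.11% for each of the others. Both strands were searched and genes overlapping at the same locus were not set apart, so these are not shares of unplaced reads.

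A few facts of the libraries bear on what follows. The files gave 19889576 to 31624477 counted reads per library. Within a genotype, the libraries with the same replicate number on the 2 stromas deviated together from their group means (r of deviations over genes 0.58 to 0.83). Between different numbers r was -0.70 to 0.20, and subtracting the means of 3 libraries pulls these values down. Each number is thus treated as 1 culture, with 3 cultures per genotype. Culture here means the 2 libraries of 1 genotype and number. These libraries came from separate stromas, and the labels give only their shared number. Nothing in the labels says more of how separate the replicates are, and p-values measure the spread between these libraries. Ik-WT replicate 3 and Ik-null replicate 1 carried reads of Y-linked genes and almost none of Xist, so 1 culture of 3 in each genotype stood apart in this way. Erythroid markers were high in all libraries (summed normalized counts of 10 markers from 707585 to 1304718). The sums of 8 megakaryocyte markers were 448 to 1127 in Ik-WT and 2883 to 8596 in Ik-null libraries, and those of 10 macrophage markers 946 to 2452 and 3234 to 11167. In bulk RNA, fewer cells of a type and less RNA per cell cannot be told apart, and the part of these other cells in the levels of PRC2 and DOT1L genes was not tested.

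The first question was whether loss of IKAROS changed the level of the chromatin genes. Phf19 and Rbbp4 fell in Ik-null cells on OP9-DL1, to 0.404 and 0.520 of their Ik-WT levels. On plain OP9 no gene of the 10 passed both thresholds used by the study (a change of at least 0.8 on the log2 scale and an adjusted p under 0.05). Ezh2, Suz12, Rbbp7 and Dot1l had log2 differences of -0.36 to -0.66 on both stromas, those of Eed were -0.25 and -0.22, and those of Ezh1, Jarid2 and Aebp2 lay near 0, between -0.15 and 0.17.

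Phf19 encodes the Polycomb-like subunit that binds histone H3 methylated on lysine 36. In Ik-WT replicates 1, 3 and 4 its normalized counts were 243, 308 and 299.9 on OP9 alone, and 281, 330.3 and 286 with the ligand. In Ik-null replicates 1, 2 and 3 they were 209, 119.8 and 118 on OP9 alone, and 198.5, 64.9 and 133 with the ligand. Every Ik-null library lay below every Ik-WT library, and Ik-null replicate 1 was the nearest to Ik-WT on both stromas. The log2 fold change was -1.31 ± 0.36 (SE; 95% confidence interval -2.09 to -0.52) on OP9-DL1 (adjusted p = 0.031, limma) and -0.97 ± 0.36 on OP9 (adjusted p = 0.102, limma).

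Rbbp4 encodes a histone chaperone shared by PRC2 with other complexes, among them the deacetylase complexes and the chromatin assembly factor CAF-1. Its normalized counts in Ik-WT replicates 1, 3 and 4 were 6204, 6098 and 5708 on OP9 alone, and 7126, 7391 and 6926 with the ligand. In Ik-null replicates 1, 2 and 3 they were 4983, 3332 and 2991 on OP9 alone, and 5372, 2832 and 3369 with the ligand. The genotypes did not overlap on either stroma, and the spread among Ik-null cultures (SD 1339 around 3858 on OP9-DL1) was wider than that among Ik-WT cultures (SD 233 around 7147). The log2 fold change was -0.94 ± 0.25 (95% confidence interval -1.48 to -0.41) on OP9-DL1 (adjusted p = 0.025, limma) and -0.71 ± 0.25 on OP9 (adjusted p = 0.085, limma).

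Rbbp7, the X-linked paralog of Rbbp4, also had its highest Ik-null values in culture 1. On plain OP9 its counts ran from 2260 to 2722 in the wild type and from 1378 to 2417 in the mutant. With the ligand they ran from 2476 to 2947 and from 1301 to 2477. The highest Ik-null library, replicate 1, reached into the Ik-WT range. Neither the log2 fold change on plain OP9, -0.53 ± 0.26 (adjusted p = 0.197, limma), nor that of -0.66 ± 0.26 on OP9-DL1 (adjusted p = 0.094, limma) passed the test.

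Ezh2, the main methyltransferase of dividing cells, measured 2391, 2132 and 2000.2 in the Ik-WT/OP9 libraries and 2804, 2441 and 2140.4 in the Ik-WT/OP9-DL1 libraries (replicates 1, 3 and 4). In Ik-null replicates 1, 2 and 3 it measured 1992, 1216 and 1339 on OP9 alone, and 2206, 1085 and 1541 with the ligand. Replicate 1 alone kept the Ik-null group close to or within the Ik-WT range, and the other Ik-null cultures were lower than every Ik-WT library. Its log2 fold change without the ligand was -0.55 ± 0.26 (adjusted p = 0.183, limma), and with it -0.66 ± 0.26 (adjusted p = 0.096, limma), and neither passed the adjusted test.

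Ezh1, the paralog kept in resting cells, showed no such order. It measured 3280, 1531 and 1842 in Ik-WT/OP9 and 3041, 1483 and 1828 in Ik-WT/OP9-DL1 (replicates 1, 3 and 4), against 1910.1, 1959 and 1792 in Ik-null/OP9 and 2083, 2453 and 1817 in Ik-null/OP9-DL1 (replicates 1, 2 and 3). Ik-WT replicate 1 stood far above the other Ik-WT cultures on both stromas, and the genotypes overlapped. The log2 fold change was -0.15 ± 0.30 (95% confidence interval -0.81 to 0.50) on OP9 (adjusted p = 0.766, limma) and 0.06 ± 0.30 (interval -0.60 to 0.72) on OP9-DL1 (adjusted p = 0.914, limma). A true change in either direction within these bounds remains compatible with these replicates.

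Suz12 and Eed, which are required for PRC2 activity, differed in size of change. On plain OP9 Suz12 ran from 3237 to 3572 in the wild type and from 2505 to 3086 in the mutant. With the ligand it ran from 3598 to 4029 and from 2178 to 3173, with no overlap of genotypes on either stroma. On OP9-DL1 its log2 fold change of -0.54 ± 0.17 passed the adjusted p (0.046, limma) but not the fold threshold, and on OP9 it was -0.36 ± 0.17 (adjusted p = 0.178, limma). Eed stayed in a narrow range, 609 to 649 in all Ik-WT libraries and 483 to 573 in all Ik-null libraries. The genotypes of Eed did not overlap, yet the log2 fold changes of -0.25 ± 0.13 (OP9, adjusted p = 0.229, limma) and -0.22 ± 0.13 (OP9-DL1, adjusted p = 0.259, limma) were small and did not pass.

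The accessory genes Jarid2 and Aebp2 had differences near 0. Jarid2, which encodes a DNA-binding subunit without the demethylase activity of its family, measured 688 to 849 in Ik-WT and 745 to 880.4 in Ik-null libraries, with log2 fold changes of 0.15 ± 0.15 (OP9, 95% confidence interval -0.16 to 0.47) and 0.12 ± 0.15 (OP9-DL1, -0.20 to 0.44). Aebp2, a zinc finger subunit that stimulates the complex, measured 296 to 413 in Ik-WT and 302 to 465 in Ik-null libraries, with log2 fold changes of 0.17 ± 0.21 (OP9, 95% confidence interval -0.28 to 0.63) and 0.02 ± 0.21 (OP9-DL1, -0.43 to 0.47). For both genes the groups overlapped on each stroma, and limma's adjusted p was 0.505 or more.

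Dot1l, which encodes the known methyltransferase of histone H3 lysine 79, had differences of about the size of those of Ezh2. It measured 2343, 2119 and 2023 in Ik-WT/OP9 and 2649, 2141 and 1852 in Ik-WT/OP9-DL1 (replicates 1, 3 and 4). In Ik-null replicates 1, 2 and 3 it measured 1745, 1247 and 1401 on OP9 alone, and 1891, 1058 and 1325 with the ligand. On OP9 the genotypes did not overlap, and on OP9-DL1 Ik-null replicate 1 lay just above Ik-WT replicate 4. Its log2 fold change without the ligand was -0.57 ± 0.22 (adjusted p = 0.119, limma), and with it -0.66 ± 0.22 (adjusted p = 0.063, limma), and neither passed.

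**Figure D1:**
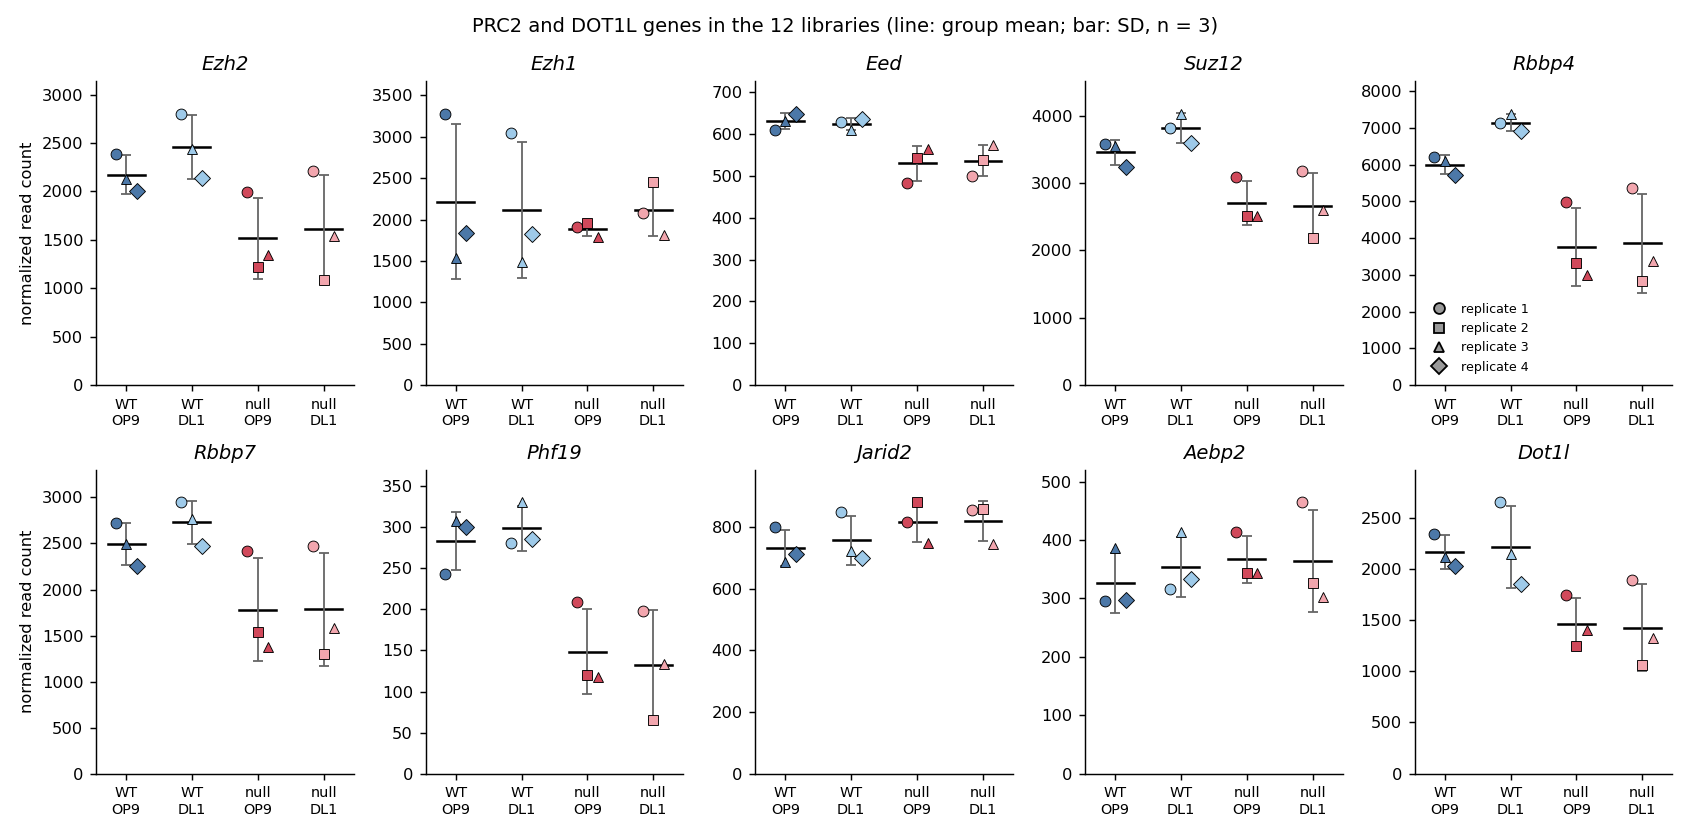
Normalized read counts (vertical axis, from 0) of the 10 PRC2 and DOT1L genes in the 12 libraries, by group; each symbol is 1 library with its shape giving the replicate number, the line is the group mean and the bar the SD (n = 3). Ik-null libraries of Phf19, Rbbp4, Suz12 and Eed all lie below the Ik-WT libraries on the same stroma, while those of Ezh1, Jarid2 and Aebp2 overlap with them.

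Counted over the 10 genes, 0 were called on OP9, where 2.83% of 13769 genes tested were called lower and 6.69% higher, and 2 (Phf19 and Rbbp4) were called lower on OP9-DL1, where the shares were 4.65% and 9.41%. At an unadjusted p under 0.05, 3 genes were lower on OP9 (Phf19, Rbbp4 and Dot1l; background 12.9%) and 6 on OP9-DL1 (also Ezh2, Suz12 and Rbbp7; background 15.7%). Applied to recovered reads of all 12 libraries, edgeR and DESeq2 also called 0 of the 10 genes on OP9 and 2 on OP9-DL1. On OP9-DL1 with only 10 libraries (without Ik-null replicate 3) edgeR called 0 and DESeq2 called 1 (Phf19). An adjusted p under 0.05 alone was reached by 0 of the 10 on OP9 (3.78% of all genes, those lower) and by 3 on OP9-DL1 (Phf19, Rbbp4 and Suz12; 7.25% of all genes). The 10 genes had a median log2 fold change of -0.44 (OP9) and -0.60 (OP9-DL1), against 0.00 and 0.03 over all genes tested. Libraries of the genotypes did not overlap, with Ik-null lower, for 6 genes on OP9 (background 16.7%) and for 4 on OP9-DL1 (background 16.9%). The 2 stromas are taken to hold the same cultures, so these counts are not treated as independent of each other. The limma fit also took its spread from all 12 libraries as if they were independent. Its standard errors and p-values thus assume more separate samples than the 6 cultures give.

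With the 2 libraries of each culture averaged, 3 Ik-null cultures were compared with 3 Ik-WT cultures over both stromas. Of the 10 genes 0 were called (2.69% of all genes were called lower and 6.69% higher), and 0 had an adjusted p under 0.05 (2.92% of all genes, those lower). The largest differences were again those of Phf19 (-1.14 ± 0.31, adjusted p = 0.060, limma) and Rbbp4 (-0.82 ± 0.24, adjusted p = 0.071, limma), then Dot1l (-0.62 ± 0.22), Ezh2 (-0.61 ± 0.25), Rbbp7 (-0.59 ± 0.24) and Suz12 (-0.45 ± 0.19). These 6 genes had an unadjusted p under 0.05 (background 12.7%), edgeR called 0 and DESeq2 called 1 (Phf19). For 5 genes (Phf19, Rbbp4, Suz12, Eed and Dot1l) all Ik-null culture means lay below all Ik-WT culture means (background 17.5%).

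**Figure D2:**
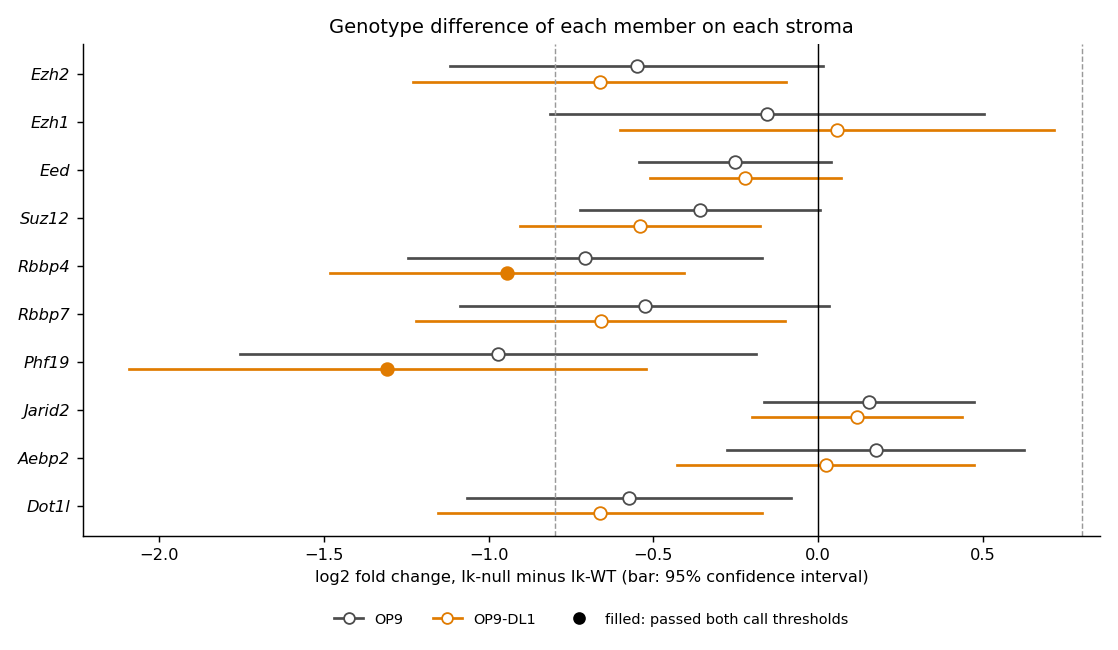
Log2 fold change (horizontal axis) of each gene between Ik-null and Ik-WT libraries on OP9 (grey) and OP9-DL1 (orange), with 95% confidence intervals from limma; dashed lines mark the fold threshold of 0.8 and filled points passed both thresholds. Only Phf19 (-1.31) and Rbbp4 (-0.94) on OP9-DL1 are filled, and Ezh1, Jarid2 and Aebp2 lie around 0.

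These calls rested on few cultures. The calls of Phf19 and Rbbp4 on OP9-DL1 were both lost when any 1 of Ik-WT cultures 1, 3 and 4 or Ik-null cultures 2 and 3 was left out. Calls of lower genes over all 13769 genes fell as well in these fits with fewer cultures. On OP9-DL1 they went from 640 to 366, 453 and 188 without Ik-WT cultures 1, 3 and 4. Without Ik-null cultures 2 and 3 they went to 200 and 376. Without Ik-null culture 1 the opposite was seen: 2 genes (Phf19 and Rbbp4) were called lower on OP9 (background 5.5%), 5 (these and Ezh2, Rbbp7 and Dot1l) on OP9-DL1 (background 8.93%) and 4 (Phf19, Rbbp4, Ezh2 and Rbbp7) on culture means (background 6.47%). Ik-null culture 1 is the Ik-null culture with Y-linked reads, and a term for such cultures left the calls at 0 on OP9 and 2 on OP9-DL1. Scaling matters as well, since library totals differed: with every library set to the same total, the median of all genes moved by -0.22 on OP9 and -0.29 on OP9-DL1, and the split of all called genes went from 921 higher and 389 lower to 579 and 858 on OP9, and from 1295 and 640 to 719 and 1589 on OP9-DL1. Under that scaling 1 of the 10 genes was called on OP9 (Rbbp4) and 6 on OP9-DL1 (Phf19, Rbbp4, Suz12, Ezh2, Rbbp7 and Dot1l), and the small positive differences of Jarid2 and Aebp2 turned negative.

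Across the 12 libraries the 6 genes Ezh2, Suz12, Phf19, Rbbp4, Rbbp7 and Dot1l varied together, with pairwise Pearson r of 0.91 to 0.98 on the log2 scale. The r of Ezh1 with them lay between -0.16 and 0.20. These values describe likeness only, since the 12 points come from 6 cultures and share their scaling. Among 9961 genes with a mean of at least 50, the genes most like Ezh2 were Rfc3 (r = 0.993), which encodes a subunit of the clamp loader of DNA replication, Api5 (0.992) and Chaf1a (0.991), which encodes the large subunit of CAF-1. The genes most like Dot1l were Fastk (0.989), Tubgcp2 (0.988) and Plekhg5 (0.987). Tubgcp2, a gamma-tubulin complex gene, and Plekhg5 were called lower in Ik-null cells on OP9-DL1 (log2 fold changes -0.91 and -1.55, adjusted p = 0.042 and 0.044, limma), whereas the other genes of both sets were not called. Those most like Ezh1 were Lgmn (0.985), a lysosomal protease gene, Rpl38-ps2 (0.975) and Nprl3 (0.972), none of them called on either stroma.

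A list of 20 proliferation genes, which encode replication, nucleotide supply and mitosis factors, was set beside the 10 chromatin genes. On OP9-DL1, 5 of the 20 were called lower in Ik-null cells. Among them were Mcm2 (log2 fold change -0.93, adjusted p = 0.031, limma), a subunit of the replicative helicase, and Birc5 (-0.98, adjusted p = 0.034, limma), a mitotic regulator. Also among them were Tyms (-1.01, adjusted p = 0.047, limma), the thymidylate synthase, and E2f2 (-0.91, adjusted p = 0.040, limma), a cell cycle transcription factor. On OP9 E2f2 alone was called lower (-0.98, adjusted p = 0.040, limma). Of the 20 genes, 19 had lower means on each stroma, with medians of -0.63 on OP9 and -0.75 on OP9-DL1. Mki67, the gene of the Ki-67 antigen, was the exception at 0.04 (OP9) and 0.13 (OP9-DL1). The background of genes called lower was 2.83% on OP9 and 4.65% on OP9-DL1. On culture means 0 of the 20 were called by limma (background 2.69%), while DESeq2 and edgeR with 12 libraries called 3 and 0. An unadjusted p under 0.05 was reached by 15 of them in limma (over all 13769 genes, 2435 higher and 1754 lower). The count on OP9-DL1 ranged from 1 (edgeR with 10 libraries) to 4 (DESeq2 with 12) in the count tests.

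Library by library, the proliferation genes and the chromatin genes had like means of their deviations from each gene's own average. On OP9 the proliferation genes stood at 0.39, 0.20 and 0.12 on the log2 scale in Ik-WT cultures 1, 3 and 4, and the chromatin genes at 0.26, 0.16 and 0.10. In Ik-null cultures 1, 2 and 3 on OP9 the proliferation genes stood at 0.00, -0.51 and -0.55, and the chromatin genes at 0.04, -0.31 and -0.35. Both lists had Ik-null culture 1 near their average and the other Ik-null cultures well below it. On OP9-DL1 the same held, with 0.17, -0.67 and -0.41 for the proliferation genes and 0.11, -0.49 and -0.29 for the chromatin genes in Ik-null cultures 1, 2 and 3. The part of cell division in the levels of the chromatin genes was not tested.

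**Figure D3:**
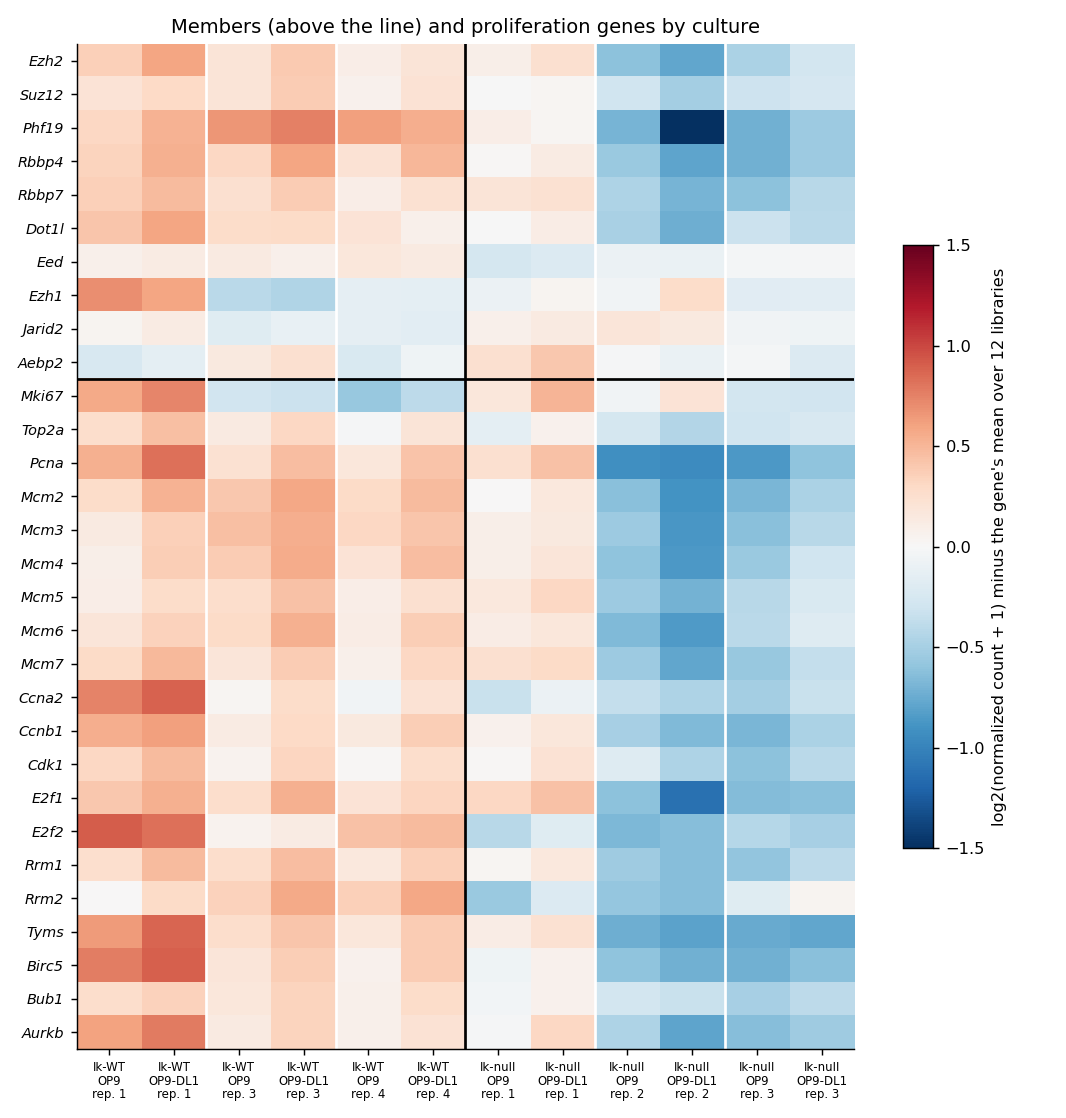
Heat map of the 10 PRC2 and DOT1L genes (above the black line) and 20 proliferation genes (below it) in the 12 libraries, ordered by culture with white lines between cultures; colour is log2(normalized count + 1) minus the gene's mean over the 12 libraries, and the value of Phf19 in Ik-null/OP9-DL1 replicate 2 lies beyond the end of the scale. The upper 6 chromatin genes are blue in Ik-null cultures 2 and 3 and near white in Ik-null culture 1, as most proliferation genes are.

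The second question was whether the NOTCH ligand changed these genes. In Ik-WT cells the log2 differences between OP9-DL1 and OP9 ran from -0.06 (Ezh1) to 0.25 (Rbbp4), and in Ik-null cells from -0.26 (Phf19) to 0.16 (Ezh1). By limma 0 of the 10 genes were called and 0 had an unadjusted p under 0.05 in either genotype, and edgeR and DESeq2 also called 0. The background was as low, with 0.00726% of all genes called and 1.39% at an unadjusted p under 0.05 in Ik-WT cells, and 0.0145% and 1.58% in Ik-null cells. The difference between the genotypes in their response to the ligand (the interaction) lay between -0.34 (Phf19) and 0.21 (Ezh1), again with 0 genes called (background 0.0%) and 0 at an unadjusted p under 0.05 (background 0.428%).

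Since libraries of the same number deviated together, the ligand comparison was also fitted with culture as a replicate block. That removed the spread between cultures, and 202 of all genes were then called in Ik-WT and 101 in Ik-null cells, in place of 1 and 2 (backgrounds of 1.47% and 0.734%). Of the 10 chromatin genes 0 were called with the block. At an unadjusted p under 0.05 stood 3 of them in Ik-WT cells (background 14.9%) and 1 in Ik-null cells (background 14.3%). In the interaction with the block 0 were called (background 0.0%) and 2 had an unadjusted p under 0.05 (background 8.81%). These were Ezh1, at 0.21 ± 0.10 (limma, unadjusted p = 0.045, adjusted p = 0.559), and Rbbp4, at -0.24 ± 0.10 (limma, unadjusted p = 0.040, adjusted p = 0.552). Rbbp4 was higher on OP9-DL1 in all 3 Ik-WT cultures (log2 differences of 0.20, 0.28 and 0.28), a mean of 0.25 ± 0.07 with the block (unadjusted p = 0.005, adjusted p = 0.097, limma). Ezh2 (0.17 ± 0.07, adjusted p = 0.289, limma) and Suz12 (0.14 ± 0.06, adjusted p = 0.314, limma) were next in Ik-WT cells. In Ik-null cultures 1, 2 and 3 Rbbp4 differed by 0.11, -0.23 and 0.17, with no common direction. Dot1l showed no common direction in either genotype, at 0.18, 0.02 and -0.13 in Ik-WT cultures 1, 3 and 4.

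Paralogs that take the same place in PRC2 were compared within each library, where the scaling between libraries drops out. The log2 ratio of Rbbp4 to Rbbp7 was lower in Ik-null cultures (1.10 ± 0.02, SD, n = 3) than in Ik-WT cultures (1.33 ± 0.09, n = 3), a difference of -0.23 (two-sided exact permutation test, p = 0.1, the smallest that 3 against 3 can give). In single libraries there were 2.28 to 2.80 counts of Rbbp4 for each of Rbbp7 in Ik-WT cells and 2.06 to 2.18 in Ik-null cells, and the genotypes did not overlap. The difference was -0.18 without and -0.28 with the ligand (exact permutation p = 0.1 for each). Ratios of counts depend on transcript length and on the shared stretches given above, and are not ratios of molecules.

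The log2 ratio of Ezh2 to Ezh1 was 0.16 ± 0.44 in Ik-WT and -0.40 ± 0.50 in Ik-null cultures (SD, n = 3 each; exact permutation p = 0.2), and the genotypes overlapped. The difference between the genotypes, -0.56, was only a little larger in size than these SDs. In single Ik-WT libraries the ratio ranged from -0.46 in replicate 1 on OP9 to 0.72 in replicate 3 on OP9-DL1. Between the stromas, with the libraries taken as unpaired, the Ezh2 to Ezh1 ratio differed by 0.23 in Ik-WT (exact permutation p = 0.5) and -0.09 in Ik-null cells (p = 1.0, exact permutation), and the Rbbp4 to Rbbp7 ratio by 0.12 (p = 0.3, exact permutation) and 0.02 (p = 0.6, exact permutation). Within Ik-WT cultures 1, 3 and 4 the Ezh2 to Ezh1 ratio was higher on OP9-DL1 by 0.34, 0.24 and 0.11, and the Rbbp4 to Rbbp7 ratio by 0.085, 0.13 and 0.15. Each was thus higher in all 3 Ik-WT cultures, at the smallest p that 3 pairs allow (p = 0.25 for each, exact two-sided sign-flip permutation test). In Ik-null cultures each ratio was higher on OP9-DL1 in 2 of 3 (p = 1.0 and 0.75, exact sign-flip permutation test). In all, 10 comparisons of ratios were made, 4 of them also within cultures, and none can pass a threshold of 0.05 in this design, with or without adjustment.

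**Figure D4:**
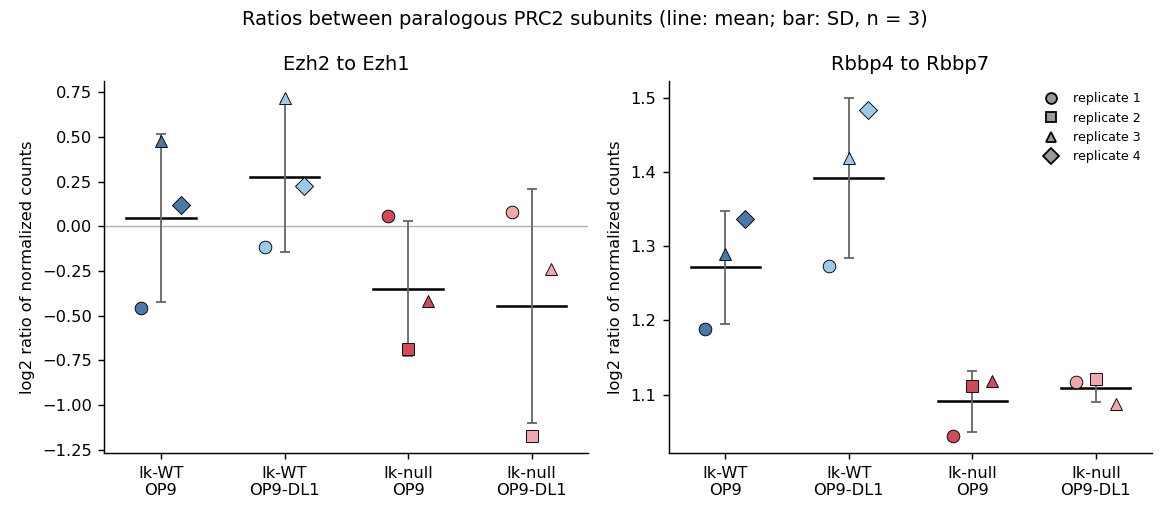
Log2 ratio of normalized counts (vertical axes, not starting at 0) of Ezh2 to Ezh1 (left) and Rbbp4 to Rbbp7 (right) in each library, by group; the line is the mean and the bar the SD (n = 3). All Ik-null values of the Rbbp4 to Rbbp7 ratio lie below all Ik-WT values, while those of the Ezh2 to Ezh1 ratio overlap.

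The rest of the Polycomb system moved in both directions. Among 5 other PRC2 accessory genes, Lcor, whose locus also encodes the PRC2 partner PALI1, rose in Ik-null cells (background of higher calls 6.69% on OP9 and 9.41% on OP9-DL1). Its counts were 336 to 580.05 in the 6 Ik-WT libraries and 857 to 2163 in the 6 Ik-null libraries, or 1.46 higher on the log2 scale without the ligand (adjusted p = 0.026, limma) and 1.58 with it (adjusted p = 0.015, limma). The counts do not separate PALI1 from the other products of the locus. Mtf2, which encodes a Polycomb-like paralog of PHF19, differed by 0.00 (OP9) and -0.10 (OP9-DL1) on the log2 scale. Phf1, which encodes another, had -0.80 (adjusted p = 0.057, limma) and -0.54 (adjusted p = 0.134, limma), and neither was called.

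PRC1, the partner complex that ubiquitinates histone H2A, was represented by 24 genes with medians of 0.01 (OP9) and -0.18 (OP9-DL1) for the log2 fold change. On OP9 3 of them were called lower (background 2.83%). They were Cbx2 (-1.90, adjusted p = 0.009, limma), Bcorl1 (-0.87, adjusted p = 0.019, limma) and Pcgf1 (-0.92, adjusted p = 0.019, limma), a subunit of a variant PRC1. Cbx2, a reader of the PRC2 mark, was low in all libraries (21.7 to 37.0 counts in Ik-WT, 6.04 to 14.1 in Ik-null). On OP9-DL1 these 3 and Scmh1 (-1.09, adjusted p = 0.002, limma) were called lower (background 4.65%). On OP9 Scmh1 differed by -0.80 (adjusted p = 0.014, limma), just short of the fold threshold. Scmh1 measured 349 to 439 in Ik-WT and 166 to 236 in Ik-null libraries. Pcgf2 was the 1 gene of the list called higher on OP9-DL1 (1.41, adjusted p = 0.042, limma, background of higher calls 9.41%). It went from 5.16 to 17.9 counts in Ik-WT to 27.2 to 38.3 in Ik-null libraries, and was named after its value was seen. On OP9 its difference was 1.34 (adjusted p = 0.063, limma).

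Enzymes that reverse Polycomb marks were also examined. Bap1, the catalytic subunit of the PR-DUB complex that removes ubiquitin from histone H2A, rose in Ik-null cells from 1822 to 2154 counts in Ik-WT libraries to 3289 to 6107, 1.22 higher on the log2 scale on both stromas (adjusted p = 0.007 and 0.006, limma). It was the only one of 9 tested PR-DUB genes that was called (background of higher calls 6.69% on OP9 and 9.41% on OP9-DL1). Of the histone H3 lysine 27 demethylases, Kdm6b had log2 fold changes of 0.66 (adjusted p = 0.227, limma) and 0.95 (adjusted p = 0.076, limma). Kdm6a, an X-linked gene known to escape X inactivation, had -0.14 on both stromas. Its counts were 3812 to 4166 in the 4 libraries with Y-linked reads and 7594 to 12408 in the other 8, a split by culture and not by genotype.

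No partner of DOT1L was called among 4 genes. Mllt1, which encodes ENL, a reader that links DOT1L to the elongation machinery, measured 356 to 434 in Ik-WT and 190.2 to 283 in Ik-null libraries. Its log2 fold changes of -0.65 (adjusted p = 0.043, limma) and -0.75 (adjusted p = 0.019, limma) passed the adjusted p but not the fold threshold. Over all genes, 3.78% (OP9) and 7.25% (OP9-DL1) were lower with an adjusted p under 0.05. Mllt6 had 0.69 and 1.09 (adjusted p = 0.274 and 0.079, limma). Among 14 tested genes of the elongation complexes, Hexim2, whose product inhibits the elongation kinase P-TEFb, rose by 1.38 and 1.29 on the log2 scale without and with the ligand (adjusted p = 0.012 and 0.013, limma), from 58.1 to 97.8 counts in Ik-WT to 144 to 283 in Ik-null libraries. The background of higher calls was 6.69% (OP9) and 9.41% (OP9-DL1). Of 12 genes of the histone H3 lysine 4 methyltransferase complexes 0 were called on either stroma by limma. An unadjusted p under 0.05 was reached by 1 (OP9) and 4 (OP9-DL1) of them. Over all 13769 genes it was reached by 2200 higher and 1773 lower genes on OP9, and by 2581 and 2168 on OP9-DL1. Of 38 Hox cluster genes, which are classical PRC2 targets, 20 were at 0 in every library and only Hoxa3 passed the filter on low values; its log2 fold changes of -0.60 (OP9) and 1.14 (OP9-DL1) were not called.

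**Figure D5:**
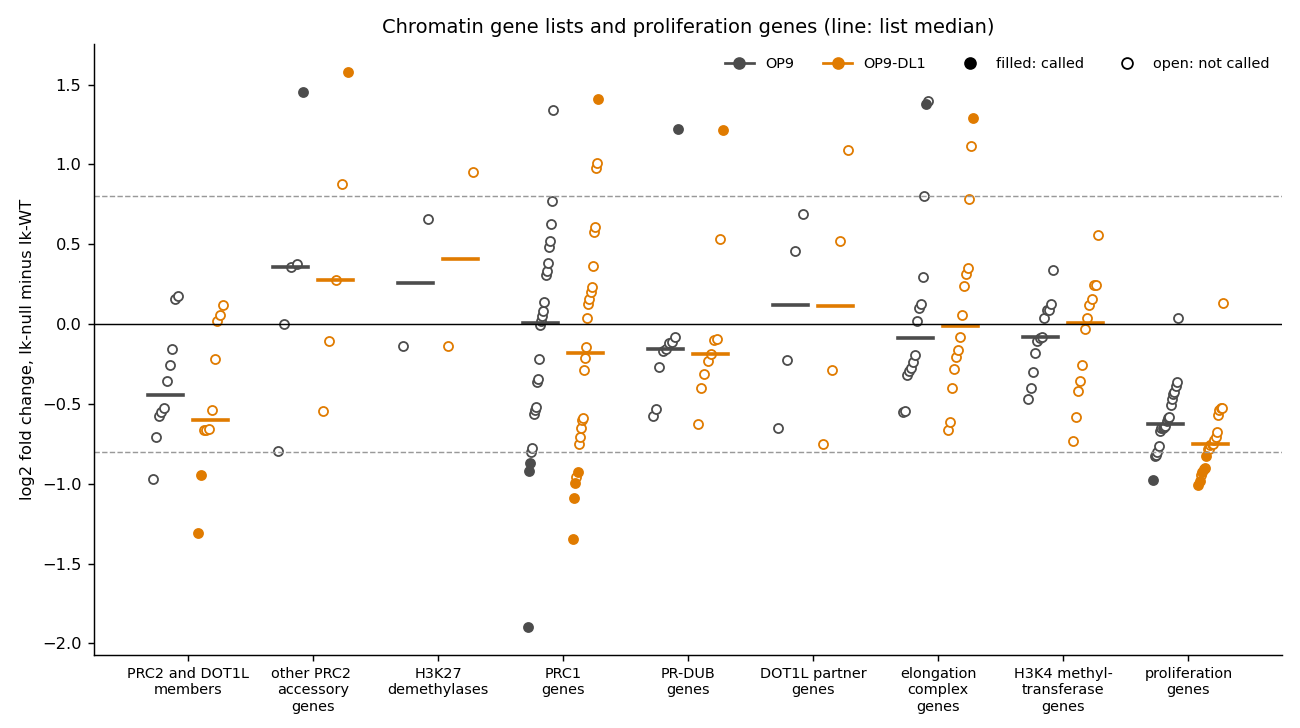
Log2 fold change between Ik-null and Ik-WT cells (vertical axis) of each tested gene in 9 lists, on OP9 (grey) and OP9-DL1 (orange); filled points were called, lines are list medians and dashed lines mark the fold threshold of 0.8. The medians of the PRC2 and DOT1L genes (-0.44 and -0.60) and of the proliferation genes (-0.63 and -0.75) lie below 0, while those of the PRC1 genes lie near it (0.01 and -0.18).

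Markers of other cells moved with the genotype beside the chromatin genes. Over all genes tested, 6.69% were called higher on OP9 and 9.41% on OP9-DL1. An unadjusted p under 0.05 was reached by 2200 higher and 1773 lower of the 13769 genes on OP9. On OP9-DL1 these were 2581 and 2168. Of 8 megakaryocyte markers 6 rose in Ik-null cells on OP9 and 7 on OP9-DL1, with Itgb3 (log2 fold changes 4.40 and 4.63) and Pf4 (3.48 and 3.73) the largest among those named. Of 9 tested macrophage markers 2 were called higher on OP9 and 4 on OP9-DL1, with Mrc1 at 2.95 on each. In the other direction, 1 megakaryocyte marker had a lower mean on each stroma (-0.36 and -0.47), and 1 macrophage marker on OP9-DL1 (-0.78). Neutrophil markers gave 0 calls by limma, with 3 (OP9) and 4 (OP9-DL1) of 8 at an unadjusted p under 0.05 and sums of 6316 to 50319 in Ik-WT and 22873 to 87259 in Ik-null libraries. Of the mast cell, lymphoid and stromal markers 0 were called on OP9 and 1 of each list was called higher on OP9-DL1 (Hdc, Il7r and Postn). The tested lymphoid markers went both ways, with 4 higher and 2 lower on each stroma. Their lowest log2 fold changes were -2.09 (Ebf1, OP9) and -2.50 (OP9-DL1). Tested stromal markers were 6 higher and 3 lower on OP9, and 8 and 1 on OP9-DL1. Of 8 hepatocyte markers 0 were called on either stroma by limma, with 2 (OP9) and 0 (OP9-DL1) at an unadjusted p under 0.05. None of the 10 erythroid markers was called by limma, with 1 and 2 at an unadjusted p under 0.05. Klf1, an erythroid transcription factor, had log2 fold changes of -0.77 (adjusted p = 0.147, limma) and -0.90 (adjusted p = 0.079, limma). Of the 10 erythroid markers 7 were lower and 3 higher on each stroma, the highest at 0.56 (OP9) and 0.67 (OP9-DL1). The part of these cells in the differences of Phf19, Rbbp4 and the other chromatin genes was not tested.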

How the data were processed

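Poly(A) RNA libraries were sequenced on an Illumina instrument, and the authors aligned reads to mouse build GRCm38/mm10 with TopHat and counted them per gene with HTSeq. The submitters' processing notes name DESeq2 1.0.19, HTSeq 0.5.3, TopHat2 2.0.9 and CASAVA 1.8. Not given in the sources used here are the release of the annotation and whether strand was used. The study's methods describe a sort on Ter119, whereas the labels describe a filter. The deposited values, a signal per gene, are read counts scaled by the authors with 1 size factor per library (from the median ratio to the geometric mean of each gene). They are not raw counts, but all values of each library (100%) were whole multiples of 1 step within a tolerance of 0.01, which gave 19889576 to 31624477 reads per library. In Ik-null replicate 3 the steps (1.005 and 1.007) are near 1, and the planned count tests left this replicate out and used the other 10 libraries. Its values were nonetheless also whole multiples of these steps (100%). Columns matched the labels by name, and no per-sample column was left unused.

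Groups came from the labels. The main test was limma 3.58.1 (lmFit, eBayes with trend; R 4.3.3) on log2(value + 1) of 13769 genes with a mean of at least 5, with all 12 libraries, 4 group means and Benjamini-Hochberg adjustment over all genes; fold changes are on this log2(value + 1) scale, which understates those of low genes. A gene was called at a log2 change of at least 0.8 in size and an adjusted p under 0.05. Alternatives were edgeR 4.0.16 (quasi-likelihood) and DESeq2 1.42.0 on recovered reads, other scalings, pseudocounts and filters, replicate blocks, a term for libraries without Xist, and leaving out each library or culture. Ratios were compared by two-sided exact permutation tests (smallest p 0.1), and within cultures, added after seeing the data, by sign-flip tests (smallest p 0.25). The limma genotype fits were checked on simulated data drawn independently for each library. Such data hold no shared culture effect, so that check does not cover the pairing of libraries.

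Named were all 10 genes of the set; from each other list, up to 4 called genes with the smallest adjusted p per genotype comparison or, with none called, up to 2 with the smallest adjusted p; and the 3 genes most like Ezh2, Ezh1 and Dot1l. A few other members of a list are named as its exceptions or paralogs. The genes and lists were chosen with earlier results of these data known. Replicate numbers were taken to pair the 2 stromas within a genotype (every same-number correlation was 0.58 or more). Ikzf1 counts do not check the genotype, since the null allele lacks 1 exon only. Figures were drawn with matplotlib 3.10.9.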

Additional observations from a re-analysis of the deposited data

Results flagged for a closer look

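Ezh1 moved in opposite directions with the ligand in the 2 genotypes. The log2 differences between OP9-DL1 and OP9 were -0.11, -0.05 and -0.01 in Ik-WT cultures 1, 3 and 4, and 0.12, 0.32 and 0.02 in Ik-null cultures 1, 2 and 3. Every Ik-WT culture was lower on OP9-DL1 and every Ik-null culture higher, which singled the gene out, and the difference between the genotypes was 0.21 ± 0.43 without a block. The test of this interaction did not pass (adjusted p = 1.0, limma), and with culture as a replicate block the difference of 0.21 ± 0.10 had an unadjusted p of 0.045 and an adjusted p of 0.559 (limma). Rbbp4 had as small an unadjusted p in that fit (-0.24 ± 0.10, unadjusted p = 0.040, adjusted p = 0.552, limma), without opposite directions in every culture. Over all genes, 8.81% had an unadjusted p under 0.05 there. Ezh1 was picked by its directions in these same values, so its p is not independent of that choice. The share of all genes with such directions was not counted. The smallest differences, 0.01 and 0.02, are within what replicates of this gene differ by.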

How the results depend on the processing

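Of 650 values of the 10 genes under alternatives, 581 kept their direction and their side of the threshold, and 25 reversed. The log2 fold changes of Ezh2, Suz12, Phf19, Rbbp4, Rbbp7, Dot1l and Eed between the genotypes were below 0 in 476 of 476. These 7 genes were the ones lower on both stromas in the main fit. The alternatives reuse the same 12 libraries, so this count is not separate evidence of a difference. Scaling every library to the same total moved the median of all genes by -0.22 on OP9, -0.29 on OP9-DL1 and -0.25 on culture means, called 1, 6 and 2 of the 10 genes (main 0, 2 and 0), and turned Jarid2 to -0.066, -0.18 and -0.12, Aebp2 to -0.046, -0.27 and -0.16, and Ezh1 on OP9-DL1 to -0.24. On OP9-DL1, 10 libraries (without Ik-null replicate 3, whose steps are near 1) gave 1 call by DESeq2 (Phf19) and 0 by edgeR. With all 12, chosen after seeing the data, DESeq2 called 1 gene on culture means. The cause was not tested.

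The other 18 lists held 15, 27 and 19 called genes on OP9, OP9-DL1 and culture means. They held 30 (OP9) and 34 (culture means) by DESeq2 with 12 libraries, 17 (OP9-DL1) by edgeR with 10, and 23 (OP9) and 46 (OP9-DL1) at the same total. Replicate numbers shared across genotypes (correlations 0.20 to 0.48, against -0.43 to 0.23 for other numbers, over numbers 1 and 3 only) were not taken to pair the samples: as a replicate block they gave 31 and 43 calls in those lists on OP9 and OP9-DL1, left 0 and 2 of the 10 genes called and put Ezh1 on OP9-DL1 at -0.10. With that block an adjusted p under 0.05 (limma) was reached by 3 of the 10 on OP9 (Dot1l, Ezh2 and Rbbp4) and 6 on OP9-DL1, in place of 0 and 3. Over all genes, 1656 and 2073 were then lower at that level, in place of 520 and 998. Culture as a block changed no other call of the 10 genes.

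Leaving out each library or culture in turn gave 0 to 2 called genes of the 10 on OP9, 0 to 5 on OP9-DL1 and 0 to 4 on culture means, and 5 to 29, 8 to 49 and 4 to 40 in the other lists. The log2 fold change ranged from -0.17 to 0.14 for Aebp2 on OP9-DL1 and from -0.040 to 0.22 on culture means, and for Ezh1 from -0.38 to 0.17 on OP9, -0.17 to 0.35 on OP9-DL1 and -0.27 to 0.26 on culture means. The stroma difference of the log2 ratio of Ezh2 to Ezh1 ranged from -0.022 to 0.44 in Ik-WT and -0.36 to 0.27 in Ik-null cells, and that of Rbbp4 to Rbbp7 in Ik-null cells from -0.0064 to 0.031. With 3 cultures per genotype, the confidence intervals given are wide, and a true change anywhere inside them remains compatible with these libraries.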
